A study of Homo sapiens with 2 samples.

Results

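The nuclear genes that encode the proteins of the mitochondrial ribosome were examined in REH cells, a human B-cell precursor leukaemia line, with and without induced PAX5. Members were all protein-coding rows of the count table whose Entrez number carries a symbol of MRPL or MRPS followed by a number and, in some, a letter. All 77 such genes of the RefSeq table were found among the 25702 rows, 51 of them coding for proteins of the large ribosomal subunit and 26 for proteins of the small subunit. In the PAX5 library, doxycycline at 1 µg/mL for 3 days induced a cassette of PAX5, an internal ribosome entry site and GFP. In the control library, the same treatment induced the entry site and GFP without PAX5. Both are total RNA of the line labelled REH-R after sorting of GFP-positive cells. PAX5 is the transcription factor that holds lymphoid cells in the B lineage. The labels do not say whether either line is a clone.

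The mitochondrial ribosome translates the few proteins that the mitochondrial genome still encodes, all of them core subunits of the respiratory chain and the ATP synthase. Its RNAs come from the mitochondrial genome, but every one of its proteins is made in the cytosol from a nuclear gene and imported. Some of these proteins descend from bacterial ribosomal proteins and line the decoding site, the catalytic centre or the exit tunnel. Others were added in mitochondria and sit mostly on the surface of the particle. Cells that grow and respire keep these genes switched on, and their promoters are known for sites of NRF1, of ETS factors such as GABPA and of YY1.

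There was 1 library per group, so the differences have no replicate check, and they compare these libraries rather than the conditions. The library totals were 11944765 counts with PAX5 and 10997864 in the control. PAX5 had 8319 against 2660 counts, 2.91-fold more once the libraries were scaled by TMM (2.78 to 3.04). Here and for every ratio that follows, PAX5 is divided by control, and the interval is an exact 95% one that covers the error of counting reads and nothing else. The B-lineage markers CD79A, CD79B, IGLL1, DNTT, RAG1 and EBF1 each had between 3278 counts (CD79B, control) and 32494 (RAG1, PAX5). VPREB1, another marker of this stage, had only 17 against 7 counts. The T-cell markers CD3D and CD2 and the erythroid markers HBA1 and HBB had 0 counts in both libraries. CD3E had 0 and 1, and of the myeloid markers CD14 had 1 and 3, LYZ 1 and 1 and CSF1R 14 and 41. In bulk RNA, fewer cells of a type and less RNA per cell cannot be told apart.

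Promoter sequences are shown for 4 members that are among those at the ends of the range described below. MRPS12 and MRPS18C were among the 3 members with the lowest ratios of PAX5 to control, and MRPL36 and MRPS31 had the highest. Each run holds the 220 bases before the RefSeq start and the 30 bases after it, 5′ to 3′ along the gene, from the RefSeq promoter table of GRCh38.p14. Capitals mark exact matches, on either strand, to 5 motifs: GCGCATGC (NRF1), CCGGAAG (ETS factors), AAGATGGC (YY1), GGGCGG (SP factors) and CACGTG (E-box, bound by MYC among others).
MRPS12 (chr19:38930724-38930973, plus strand): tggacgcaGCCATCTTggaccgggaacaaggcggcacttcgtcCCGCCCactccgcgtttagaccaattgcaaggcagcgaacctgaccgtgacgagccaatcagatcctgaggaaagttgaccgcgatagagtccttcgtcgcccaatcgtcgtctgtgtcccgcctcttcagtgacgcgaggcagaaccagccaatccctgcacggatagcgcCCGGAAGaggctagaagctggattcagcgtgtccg
MRPS18C (chr4:83455838-83456087, plus strand): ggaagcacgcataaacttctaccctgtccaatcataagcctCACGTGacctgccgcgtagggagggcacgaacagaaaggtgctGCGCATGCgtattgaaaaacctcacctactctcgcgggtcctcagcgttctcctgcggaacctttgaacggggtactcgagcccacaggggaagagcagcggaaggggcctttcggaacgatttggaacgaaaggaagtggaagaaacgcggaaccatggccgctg
MRPL36 (chr5:1799808-1800057, minus strand): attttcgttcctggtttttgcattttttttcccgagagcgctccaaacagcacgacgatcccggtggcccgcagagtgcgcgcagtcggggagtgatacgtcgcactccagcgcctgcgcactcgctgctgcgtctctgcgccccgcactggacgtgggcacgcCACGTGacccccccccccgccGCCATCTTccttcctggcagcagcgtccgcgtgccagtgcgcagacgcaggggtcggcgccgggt
MRPS31 (chr13:40771161-40771410, minus strand): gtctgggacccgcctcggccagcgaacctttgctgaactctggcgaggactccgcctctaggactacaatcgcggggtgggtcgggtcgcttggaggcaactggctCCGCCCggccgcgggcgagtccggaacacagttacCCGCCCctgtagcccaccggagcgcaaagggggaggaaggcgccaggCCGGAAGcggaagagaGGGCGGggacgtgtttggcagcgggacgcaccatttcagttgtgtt
Distances are to the first base of each match as printed. The MRPS12 run holds the ETS letters from 5 bases before the start to just past it. On the opposite strand it holds the YY1 letters 212 and the SP letters 177 bases before the start. The MRPS18C run holds the NRF1 letters 136 bases before the start and an E-box 179 bases before it. MRPS18C also has the ETS letters within the 300 bases searched, at a place not wholly inside the run shown. MRPL36, at the other end of the range, has YY1 letters on the opposite strand 35 bases before its start and an E-box at 56 bases. MRPS31 has ETS letters 32 bases before its start and 3 matches to the SP letters. MRPL41, which had the lowest ratio, is not shown, and the 300 bases searched for it held only the SP letters. A match of letters is a description and not a binding site.

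Every member was expressed. Summed over both libraries, the members had from 226 counts (MRPL41) to 4392 (MRPS27), with a median of 1032, and all 77 exceeded 100. So that genes can be compared with each other, levels are given as RPKM, counts divided by the length of the feature and the scaled size of the library. The median member stood at 32.7 RPKM with PAX5 and at 37.9 in the control, and the mean of both libraries ranged from 8.91 to 179 RPKM. The most abundant was MRPL51, a mitochondria-specific protein of the large subunit, at 165 RPKM with PAX5 and 193 in the control. MRPL37, also specific to mitochondria, followed at 102 and 110. MRPL23, whose bacterial relative sits beside the exit of the nascent chain tunnel, stood at 76.1 and 98.4 RPKM. MRPS15, a small subunit protein with a bacterial relative, stood at 80.4 and 79.1, and MRPL12, which forms the flexible stalk that recruits translation factors, at 65.4 and 78.7. These 5 genes lay in the same order in both libraries except that MRPS15 was above MRPL23 with PAX5 and below it in the control.

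The least abundant members were MRPS25, at 8.12 RPKM with PAX5 and 9.69 in the control, and MRPS18C, at 7.65 and 11.5. MRPL43 stood at 13.8 and 14.5, MRPL22 at 12.9 and 16.5, and MRPS33 at 14.8 and 16.9. The RPKM levels of the members thus spanned a wider range than the ratio of any member between the libraries. Across the 77 genes, which share libraries and are not independent replicates, Spearman's rho between the RPKM of both libraries was 0.97.

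**Figure D1:**
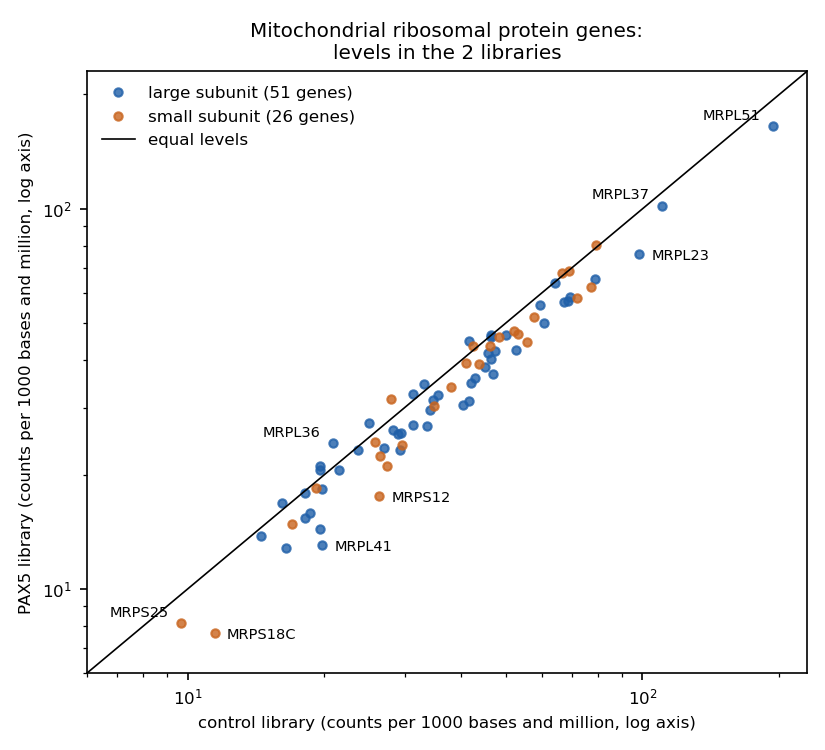
Level of each of the 77 members in the control library (x) and the PAX5 library (y), in RPKM (counts per 1000 bases and scaled library size) on log axes, with 1 point per gene coloured by ribosomal subunit and a line of equal levels. Most points lie a little under the line, from MRPS18C and MRPS25 at the bottom to MRPL51 at the top.

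Most members had a slightly lower share of the PAX5 library than of the control. Together they took 45531 counts with PAX5, 0.381% of that library, and 46574 counts in the control, 0.423% of it (log2 ratio -0.14, interval -0.16 to -0.12). The median log2 ratio of the members was -0.18, or 1.13-fold lower, beside -0.01 over all 13532 features with at least 10 counts. Of the 77 members, 64 had a ratio under 1 and 13 a ratio over 1. Counting intervals lay wholly below 0 for 37 members, 48.1%, and wholly above 0 for none, against 16.8% below and 18.7% above among all features. No member was past 2-fold at the nearer interval bound, a limit passed by 1.34% of features on the higher side and 0.0517% on the lower side. By a ratio of at least 1.2-fold, a rule that does not tighten with depth, 20 of 77 members were lower and none higher, while among features with at least 100 counts 12.7% were lower and 14.2% higher. If a biological coefficient of variation of 0.1 is assumed, which 1 library per group cannot estimate, the intervals of 3 members lie below 0 rather than those of 37.

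MRPS12, the relative of the bacterial decoding-centre protein S12 (Entrez 6183), had 277 counts with PAX5 and 386 in the control (log2 ratio -0.58, interval -0.81 to -0.36). It had the interval farthest below 0 of the 77 members. MRPL41 (Entrez 64975) had 94 against 132 counts and the lowest point ratio, 1.51-fold lower with PAX5. Its interval was wide, at -0.99 to -0.20 on the log2 scale. MRPS18C (Entrez 51023) had 102 against 142 counts (log2 ratio -0.58, interval -0.96 to -0.21). The next lowest log2 ratio was -0.44, that of MRPL13, which is known to bind early in the building of the large subunit.

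Of the other members with the lowest interval bounds, MRPL23 had 671 against 807 counts (log2 ratio -0.37, interval -0.52 to -0.22). The bacterial relatives of MRPL4 and MRPL22 line the exit tunnel. MRPL4 had 665 against 779 counts (log2 ratio -0.33, interval -0.49 to -0.18), and MRPL22 had 485 against 577 (log2 ratio -0.36, interval -0.53 to -0.18). MRPL27, the relative of a bacterial protein near the catalytic centre, had 261 against 323 counts (log2 ratio -0.41, interval -0.65 to -0.17), and the mitochondria-specific MRPL40 had 281 against 346 (log2 ratio -0.41, interval -0.64 to -0.17).

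The stalk genes had similar log2 ratios. MRPL12 had 777 against 870 counts (log2 ratio -0.27, interval -0.41 to -0.13), and MRPL10, which anchors it, 328 against 359 (log2 ratio -0.24, interval -0.46 to -0.02). MRPL11, at the base of the stalk, had 769 against 841 counts (log2 ratio -0.23, interval -0.38 to -0.09). MRPL3, a core protein of the large subunit, had 1169 against 1285 (log2 ratio -0.24, interval -0.36 to -0.13). The interval of MRPL58, a hydrolase that frees stalled ribosomes, included 0 with 267 against 282 counts (log2 ratio -0.18, interval -0.43 to 0.06).

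The 3 relatives of bacterial S18 are paralogs, of which MRPS18A is built into the large subunit and MRPS18B and MRPS18C into the small one. Only MRPS18C takes the place of S18 itself. MRPS18B had 856 against 901 counts (log2 ratio -0.18, interval -0.32 to -0.04), and MRPS18A 332 against 355 (log2 ratio -0.20, interval -0.42 to 0.02). MRPS18C, at -0.58, had the lowest point ratio of the 3, but its interval overlapped both of theirs. RefSeq lists 6 pseudogenes named after MRPS18C, and how reads that match several copies were counted is not stated, so its value is uncertain. Of the 77 members, 41 have at least 1 such pseudogene, among them MRPS31 with 3 and MRPL50 with 4.

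No member had an interval above 0, so the upper end of the range is given by point ratios. MRPL36, a small zinc-binding protein of the large subunit, had 177 against 142 counts (log2 ratio 0.21, interval -0.11 to 0.54). MRPS31 had 502 against 414 (log2 ratio 0.17, interval -0.02 to 0.36), and MRPS30, a large subunit protein in spite of its name, 542 against 463 (log2 ratio 0.12, interval -0.06 to 0.30). MRPL45, which holds the ribosome at the inner membrane, had 903 against 779 counts (log2 ratio 0.11, interval -0.03 to 0.25). MRPL50 had 255 against 220 counts (log2 ratio 0.11, interval -0.16 to 0.37). MRPL55 had 222 against 196 counts (log2 ratio 0.07, interval -0.21 to 0.36), MRPL30 998 against 887 (log2 ratio 0.06, interval -0.07 to 0.20) and MRPL19 1568 against 1395 (log2 ratio 0.06, interval -0.04 to 0.17). At the depth of these libraries, a difference from equal levels was not detectable for these genes or for the other members whose intervals included 0, 40 in all. The half-width of the log2 interval ranged from 0.086 to 0.39 over the members, with a median of 0.18.

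**Figure D2:**
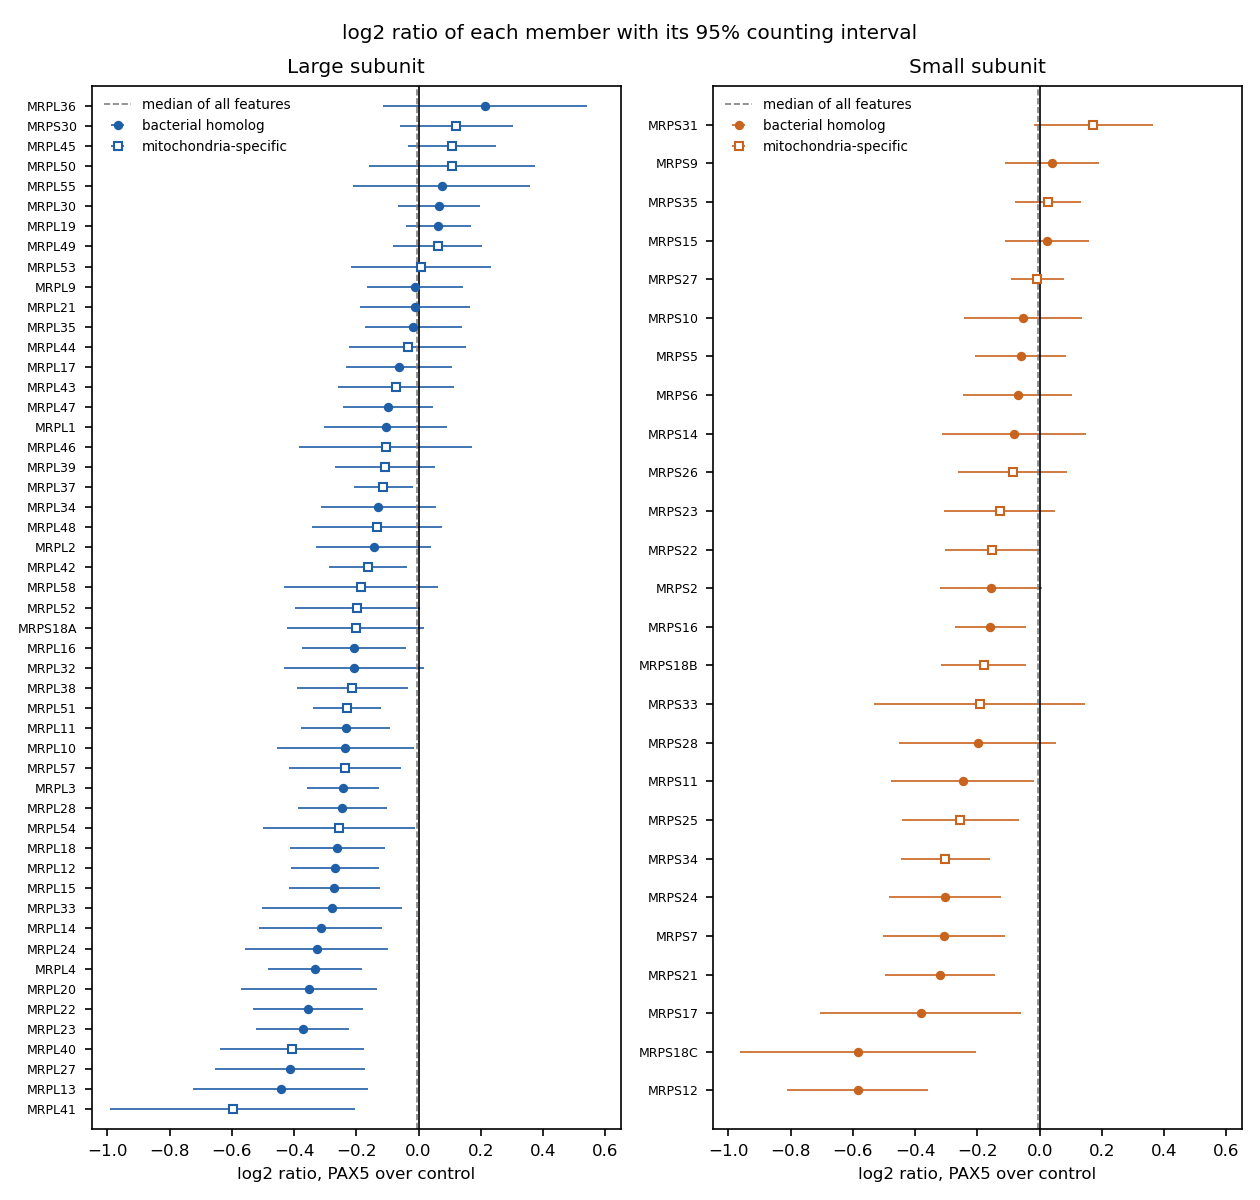
log2 ratio (PAX5 over control) of every member with its 95% counting interval, large subunit left and small subunit right, filled circles for proteins with a bacterial relative and open squares for mitochondria-specific ones. The dashed line marks the median of all features at -0.01, and intervals lie wholly left of 0 for 37 genes and wholly right of 0 for none.

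Large subunit genes had a median log2 ratio of -0.20, with 25 of 51 intervals below 0, and small subunit genes a median of -0.16, with 12 of 26. Those shares are 49.0% and 46.2%, beside 16.8% of all features. Averaged over the members' classes of like length and expression, 41.6% and 44.5% of the other features had intervals below 0. Summed over its genes, the large subunit had 29219 against 30103 counts (log2 ratio -0.15, interval -0.17 to -0.13) and the small subunit 16312 against 16471 (log2 ratio -0.12, interval -0.15 to -0.09). By ancestry, as the unified names of ribosomal proteins give it, the 46 genes of proteins with a bacterial relative had a median of -0.22 and 25 intervals below 0, and the 31 mitochondria-specific ones a median of -0.13 and 12 intervals below 0. Those shares are 54.3% and 38.7%, where the same average was 42.6% for either ancestry. The point ratio was at least 1.2-fold lower for 17 of 46 genes with a bacterial relative. It was so for 3 of 31 mitochondria-specific genes, MRPL40, MRPL41 and MRPS34. That is 37.0% and 9.68%, beside 12.7% of all features and, averaged over the members' classes of like length and expression, 28.9% and 27.0% of the other features. In this split MRPS18A and MRPS18B count as mitochondria-specific, although they descend from S18, because their unified names do not carry its number. The difference between these classes was not tested, since genes are not replicates.

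Mitochondrial ribosomal protein genes are short, and short features in general had lower ratios in these libraries. The members had a median feature length of 1171 bases (518 to 7827), against 2873 over all features with at least 10 counts, and 38 of the 77, 49.4%, fell into the shortest of 10 equal classes of those features. In that class, the 1316 other features had a median log2 ratio of -0.21 and the 38 members one of -0.24. In the next class, 1337 others had -0.11 and 16 members -0.15. In the longest class, the median of the others was 0.19, and its only member, MRPL19, lay at 0.06. Within the members, Spearman's rho between the log2 ratio and length was 0.30, beside 0.33 across 13455 other features, and it was -0.31 with GC content. What sets the trend with length was not tested.

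Each member was therefore set beside the other features of its own class of length (10 classes) and mean expression (5 classes), 162 to 479 features per class. The median difference of the members from the median of their classes was -0.02 on the log2 scale, with 41 members under and 36 over their class. The 25th and 75th percentiles of this difference were -0.12 and 0.09 among the members and -0.11 and 0.12 among the 4532 other features of the same 18 classes. The share of intervals below 0, averaged over the members' classes, was 42.6% for the other features, where the members had 48.1%. For a ratio at least 1.2-fold lower the same average was 28.2%, where the members had 26.0%. On the higher side, the averages for the other features were 7.10% by interval and 5.20% by ratio, where the members had none.

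The 3 members with the lowest ratios were also the lowest against their classes. MRPS12 differed from the median of its class by -0.44 on the log2 scale, and MRPL41 and MRPS18C by -0.43 and -0.41. MRPL36 (0.38), MRPL50 (0.33) and MRPS31 (0.32) were the farthest above. Over both libraries MRPS12, MRPL41 and MRPS18C had 663, 226 and 244 counts, and MRPL36, MRPL50 and MRPS31 had 319, 475 and 916. The median member had 1032, so counting error is wide for the members at these ends. Proteins with a bacterial relative had a median difference of -0.04, with 28 of 46 genes under their class, and mitochondria-specific ones a median of 0.03, with 13 of 31.

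**Figure D3:**
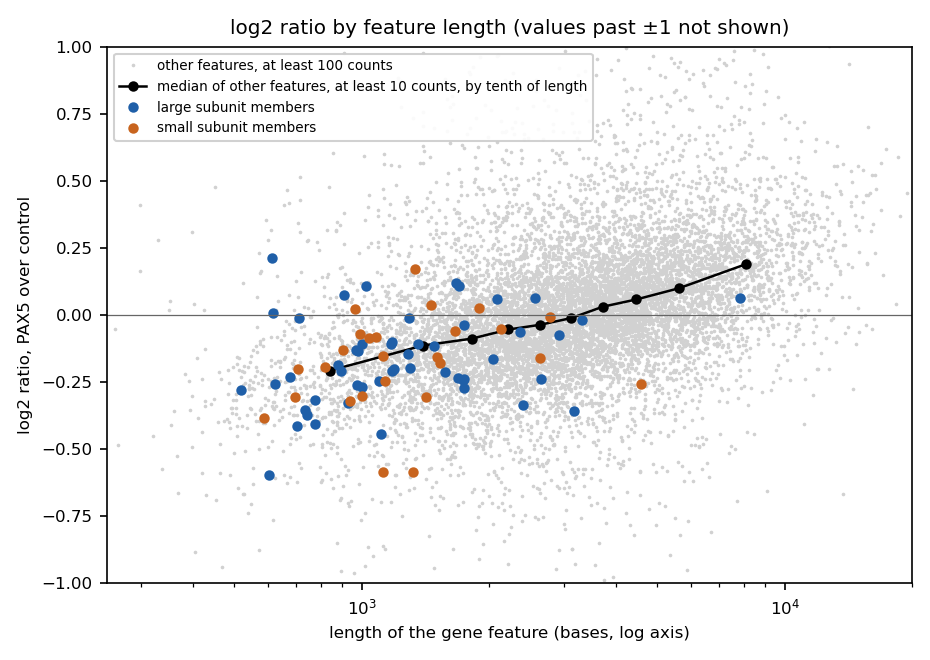
log2 ratio (PAX5 over control) against feature length in bases (log axis), with members coloured by subunit, other features with at least 100 counts in grey and the median of the other features in each of 10 classes of length as a black line. The line climbs from -0.21 in the shortest class to 0.19 in the longest, and the members scatter around its left end.

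The other genes of mitochondrial translation were taken from lists. Of 5 ribosomal proteins that carry other symbols, 3 had intervals below 0: GADD45GIP1 of the large subunit with 567 against 657 counts, and AURKAIP1 and CHCHD1 of the small subunit with 800 against 901 and 404 against 471. That is 60.0% of a list of 5 genes, beside 16.8% of all features and 42.1% in classes of like length and expression. DAP3 (-0.09) and PTCD3 (-0.02), both of the small subunit, had log2 intervals that included 0. For the lists that follow, the share of intervals below 0 is to be read beside the 16.8% of all features and the average share in the classes of like length and expression. Of 25 assembly factors, 5 had intervals below 0 and 1 above, with a median log2 ratio of -0.07. The share below 0 was 20.0%, against 21.0% in classes of like length and expression. MALSU1, which binds the maturing large subunit, had 201 against 261 counts (log2 ratio -0.48, interval -0.76 to -0.21), and NGRN, needed for the large ribosomal RNA, had 798 against 644 (log2 ratio 0.20, interval 0.05 to 0.36). YBEY, an RNA processing factor, and the helicase gene DHX30 had log2 ratios of -0.31 and -0.18, with intervals below 0.

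Translation factors had a median log2 ratio of -0.07, with 4 of 17 intervals below 0 and 0 above, which is 23.5% below against 21.9% in like classes. SLIRP, a partner of LRPPRC that protects mitochondrial messenger RNAs, had 376 against 491 counts (log2 ratio -0.49, interval -0.69 to -0.29), and the elongation factor gene TUFM had 2802 against 2896 (log2 ratio -0.15, interval -0.23 to -0.08). OXA1L, which inserts the new chains into the inner membrane, lay at a log2 ratio of -0.16, and its interval was below 0. The mitochondrial aminoacyl-tRNA synthetases and related enzymes had a median log2 ratio of -0.03, with 3 of 20 intervals below 0 and 0 above, which is 15.0% below against 14.8% in like classes. The 3 were CARS2 at a log2 ratio of -0.37, MARS2 at -0.33 and PARS2 at -0.54, the enzymes that charge cysteine, methionine and proline tRNAs. Of 16 genes of mitochondrial transcription and RNA processing, 3 had intervals below 0 and 0 above, which is 18.8% below against 26.0% in like classes. SSBP1, which coats single-stranded mitochondrial DNA, had 1209 against 1419 counts (log2 ratio -0.34, interval -0.45 to -0.23). The others were the mitochondrial RNA polymerase gene POLRMT at -0.23 and HSD17B10, a subunit of mitochondrial RNase P, at -0.14. Against features of like length and expression, SSBP1 and POLRMT differed by -0.10 and -0.27, while HSD17B10 lay above its class, by 0.08. Among 10 measured regulators of mitochondrial biogenesis, 3 had intervals below 0 and 2 above, where like classes hold 15.0% below and 25.8% above. ESRRA, a nuclear receptor that drives respiratory genes, had 141 against 249 counts (log2 ratio -0.93, interval -1.23 to -0.62), and the co-regulator HCFC1 had 4096 against 3346 (log2 ratio 0.19, interval 0.12 to 0.25). Against features of like length and expression, ESRRA differed by -0.87 and HCFC1, a feature of 8426 bases, by -0.02. MYC (2503 against 3019 counts) and the coactivator gene PPRC1 (627 against 721) had log2 ratios of -0.38 and -0.31. GABPB1, which encodes the partner of GABPA, had one of 0.14. Beside their own classes, MYC and PPRC1 differed by -0.31 and -0.41, and GABPB1 by 0.16. NRF1 (0.05), GABPA (-0.05) and YY1 (0.02), the factors behind 3 of the motifs searched, had log2 intervals that included 0. The 13 mitochondrially encoded protein genes are listed at 0 counts in both libraries, so the messenger RNAs that the mitochondrial ribosome translates were not measured. Its protein products are not measured by RNA counts.

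The groups most like the members had lower medians than the members both before and after length and expression were allowed for. Cytosolic ribosomal protein genes had a median log2 ratio of -0.25 over 85 genes, and nuclear subunits of oxidative phosphorylation one of -0.24 over 80. Against features of like length and expression, their medians were -0.05 and -0.07, beside -0.02 for the members. Of their genes, 64.7% and 77.5% lay under their class, beside 53.2% of the members. Whether the groups differ was not tested.

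**Figure D4:**
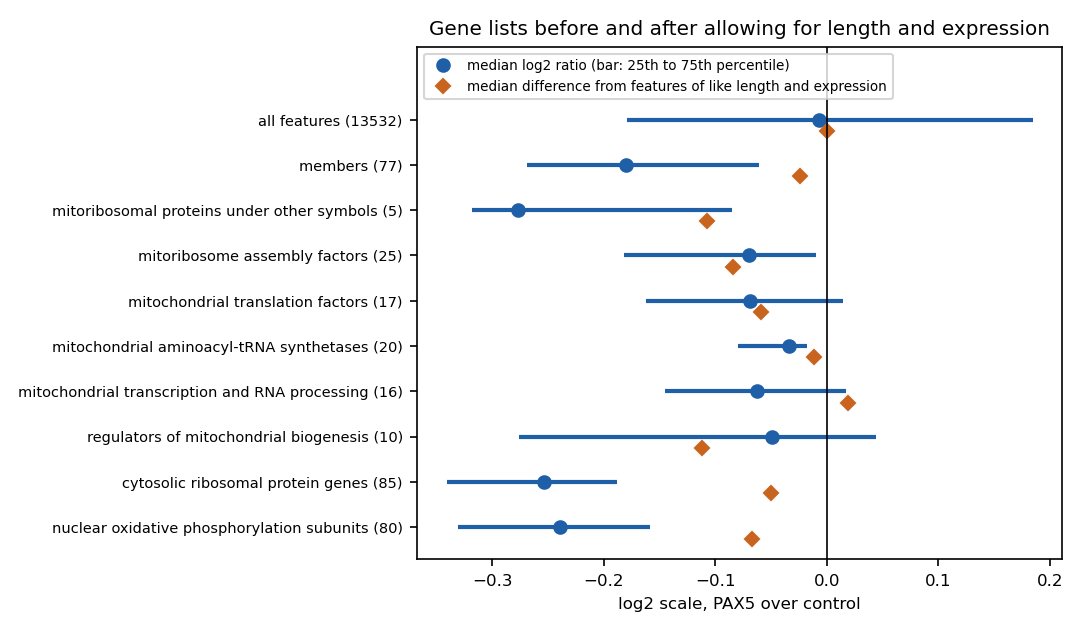
Median log2 ratio (PAX5 over control) of each gene list as blue circles with bars from the 25th to the 75th percentile, and the median difference from features of like length and expression as orange diamonds, with the number of genes that had at least 10 counts in brackets. The members move from -0.18 to -0.02 once length and expression are allowed for.

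Promoters were found in the RefSeq table for 69 members, and the first entry of each gene was searched over its 300 bases, 250 before the start and 50 after it. The ETS letters CCGGAAG were in 29 of the 69, 42.0%, against 19.8% of the promoters of 10348 expressed genes and 10.7% of all 27305 promoters. The YY1 letters AAGATGGC were in 20, 29.0%, against 5.54% and 3.03%. The NRF1 letters GCGCATGC were in 6, 8.70%, against 5.89% and 3.27%, and the SP letters GGGCGG in 42, 60.9%, against 70.1% and 44.6%. The E-box CACGTG was in 6, 8.70%, against 10.1% and 7.43%. Members with neither ETS nor YY1 letters (28) had a median log2 ratio of -0.11, members with 1 of them (33) -0.18 and members with both (8) -0.21. The 3 classes overlapped widely, from -0.60 to 0.07, from -0.58 to 0.21 and from -0.58 to -0.05, and against features of like length and expression their medians were 0.02, -0.02 and -0.05. Motif by motif, this median was -0.05 with and 0.02 without the ETS letters, and -0.02 both with and without the YY1 letters. It was -0.05 with and -0.02 without the NRF1 letters, 0.01 and -0.05 for SP, and 0.09 and -0.03 for the E-box. These splits were not tested.

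Some members start near a gene on the opposite strand. In RefSeq, 22 members have such a partner that starts within 1000 bases. Both genes had at least 10 counts in 17 pairs, 1 of them the pair of members MRPL46 and MRPS11. The counting intervals of both genes lay apart in 6 of these 17 pairs and overlapped in the rest. The share of all genes with such a partner is not given here, so this layout is not shown to be particular to the members. The libraries were not stated to be counted by strand, so reads where such genes overlap cannot be assigned with certainty. MRPS12 starts 181 bases from SARS2, the mitochondrial seryl-tRNA synthetase gene, which had 321 against 293 counts (log2 ratio 0.03, interval -0.21 to 0.26), above the interval of MRPS12. MRPS18C starts 175 bases from the DNA helicase gene HELQ, which had 252 against 214 counts (log2 ratio 0.13, interval -0.14 to 0.40). MRPL27 starts 45 bases from EME1, a subunit of a DNA endonuclease, with 287 against 224 counts (log2 ratio 0.25, interval -0.01 to 0.51).

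These partners are longer features than the members beside them, at 2136, 3592 and 2354 bases against 1324, 1121 and 703. Against features of their own length and expression, SARS2, HELQ and EME1 differed by 0.09, 0.08 and 0.31, and MRPS12, MRPS18C and MRPL27 by -0.44, -0.41 and -0.19. In the pair of MRPL49 and FAU the order was turned. FAU, which encodes a cytosolic ribosomal protein, had 3443 against 4086 counts (log2 ratio -0.35, interval -0.42 to -0.29). MRPL49 had 858 against 764 (log2 ratio 0.06, interval -0.08 to 0.20). Here the partner is the shorter feature, at 575 bases against 2089. Against features of their own length and expression, FAU differed by -0.11 and MRPL49 by 0.14. MRPL18 and the chaperonin gene TCP1 lay close together at -0.26 and -0.19, as did MRPL32 and the proteasome gene PSMA2 at -0.21 and -0.24. Of the other partners, NCAPD2 beside MRPL51 (log2 ratio 0.14 against -0.23) and PPP1R10 beside MRPS18B (0.18 against -0.18) were the 2 with intervals above 0. Both are longer than the members beside them, at 4806 and 4519 bases against 677 and 1534. Against features of their own length and expression, NCAPD2 and PPP1R10 differed by 0.08 and 0.13, and MRPL51 and MRPS18B by 0.01 and -0.06. HIRA beside MRPL40 lay at -0.20, ZNF189 beside MRPL50 at -0.12, MITD1 beside MRPL30 at -0.15 and CYB5RL beside MRPL37 at 0.04. PTCD2 beside MRPS27 lay at -0.21, with an interval that included 0. The divergent transcript beside MRPS30 had 3 and 4 counts.

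**Figure D5:**
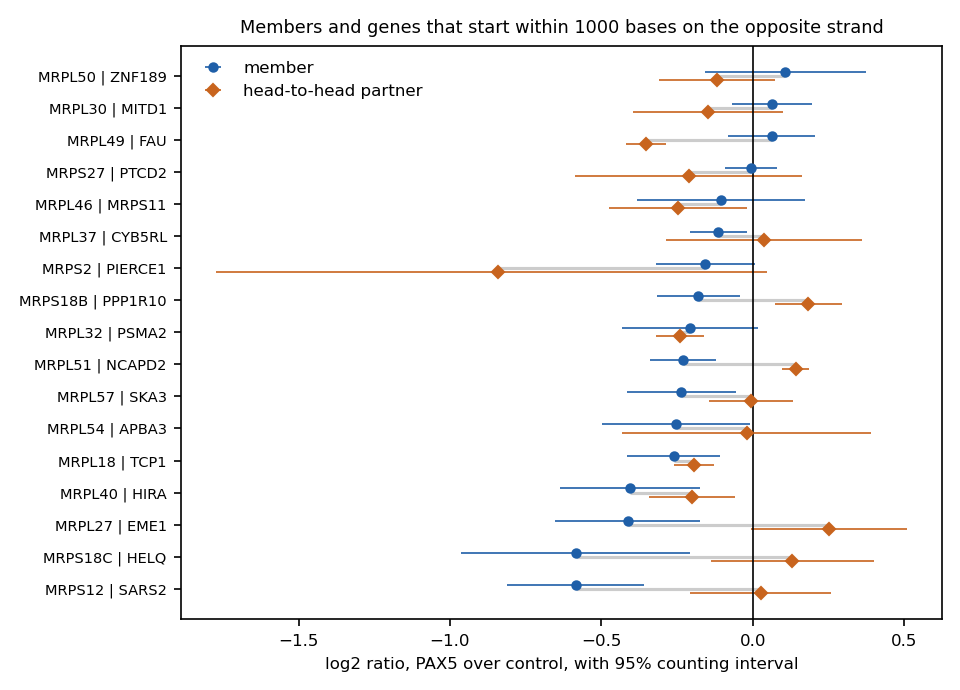
log2 ratio (PAX5 over control) with its 95% counting interval for members (blue circles) and for the genes that start within 1000 bases of them on the opposite strand (orange diamonds), 1 pair per line. MRPS12 and SARS2, on the bottom line, lie at -0.58 and 0.03.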

How the data were processed

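Total RNA of 2 libraries was sequenced, 1 per group, and groups follow the genotype labels. The values deposited by the authors are raw featureCounts counts. The build, hg19 (GRCh37), is named per the submitters' processing notes. Alignment, strandedness and multiple matches were not given in the sources used here. The series table and the single-library files held the same 51404 values. The members and gene lists were chosen with earlier results of these data known.

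Symbols came by Entrez number from RefSeq (GRCh38.p14), which matched 23696 of 25702 rows. TMM factors (edgeR 4.0.16, R 4.3.3) were computed over rows with at least 10 counts, and scaled library sizes gave CPM, RPKM and log2 ratios. With 1 library per group neither edgeR nor DESeq2 can test a gene. Intervals of ratios come from exact Clopper-Pearson limits at 95% (scipy 1.17.1) given the summed counts of a gene, and cover counting error only. PCR reads without molecular identifiers are not independent molecules. GC content is the median over GENCODE 29 transcripts. The calculation was tested on simulated data. Some of the cell type markers looked at are not reported here.

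Genes named are the 8 members with the lowest interval bounds, the 8 highest (bounds tied at 0 were ordered by ratio), the 5 most and least abundant per length, the S18 paralogs, the stalk, MRPL3 and MRPL58, the ends of the comparison by length and expression, genes with the largest bounds in each other list, and partners of named members. Other members named for a count or a pair (MRPL13, MRPS34, MRPS27, MRPL46, MRPS11, MRPL18, MRPL32 and MRPL49, with their partners) and the regulators NRF1, GABPA and YY1 were added after their values were seen.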

Additional observations from a re-analysis of the deposited data

How the results depend on the processing

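Size factors from DESeq2 1.42.0, total counts, upper-quartile factors, other count minimums and the files of single libraries left the counts of members within 1.5 times of those given. The median log2 ratio moved to -0.21 with upper-quartile factors and was -0.19 to -0.17 under the other settings it was computed for, the mean among them. The difference from features of like length and expression ranged from -0.04 (length alone) to -0.01 (20 by 10 classes, or length with GC content). Of 77 members, 10 to 16 had a ratio over 1 under the 3 other scalings, and the 16 members at the ends of the range kept their direction. With an assumed biological coefficient of variation of 0.1, which these data cannot estimate, 3 intervals lay below 0 in place of 37. With a ratio of 1.1 in place of 1.2, 44 members were lower and 2 higher, and at 1.5, 1 was lower. Without members that have a pseudogene, 16 of 36 intervals lay below 0 and 10 of 36 ratios were at least 1.2-fold lower, since fewer genes were counted. No paired analysis was possible because each group has 1 library.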
